A study of Mus musculus with 7 samples.

Results

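A set of 9 heme synthesis genes was followed through 7 single-cell RNA-seq libraries of mouse liver, by name among the 32285 genes that the matrices count: Alas1, Alas2, Alad, Uros, Urod, Cpox, Ppox and Fech, which encode enzymes of the pathway, and Slc25a38, which encodes a mitochondrial carrier for its substrate. All 9 were listed in all 7 matrices. The remaining enzyme of the pathway was not analysed here. The libraries were made with a 10x Genomics 3′ kit from dissociated liver tissue, and GEO's labels give all 7 the same state, a mouse model of hepatoblastoma, the liver cancer of early childhood. In the study's model, Alb-Cre;CAG-Myc mice (ABC-Myc) on a C57BL/6J background carry Cre under the albumin enhancer and promoter, which is active in liver epithelial precursors and hepatocytes, and human MYC under a CAG promoter behind a floxed stop. The study describes tumors and healthy livers and gives NEJ687, NEJ634, NEJ723 and NEJ709 as tumors, but the labels give no genotype, age or group, so each library is reported by itself, no groups were compared and no p-value was computed. The description field of NEJ709 names NEJ634.

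Heme is the iron-holding ring that carries oxygen in haemoglobin and electrons in cytochromes, and erythroid cells and hepatocytes are its main producers. Synthesis begins in the mitochondrion, where aminolevulinate synthase joins glycine to succinyl-CoA. This first step is made by Alas1 in most tissues, where heme itself represses it, and by Alas2, encoded on the X chromosome, in erythroid cells. Alad, Uros and Urod act in the cytosol, and Cpox, Ppox and Fech complete the ring in the mitochondrion, where Fech, ferrochelatase, inserts the iron.

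The promoter stretches of the 3 members whose RefSeq start region held a GATA hexamer are printed first. GATA1 is the erythroid factor known to drive heme synthesis genes, and the members other than Alas1 shared an erythroid pattern of levels. Sequences are RefSeq's, on GRCm38.p6, written 5′ to 3′ along the gene's strand, with the hexamer in capitals. The searched letters were AGATAA and the forms that begin with T or end with G, which are TGATAA, the hexamer AGATAG and lastly TGATAG, on both strands, over windows from 250 bases before to 50 bases after the start.
Alas2, chrX:150547167-150547374, plus strand: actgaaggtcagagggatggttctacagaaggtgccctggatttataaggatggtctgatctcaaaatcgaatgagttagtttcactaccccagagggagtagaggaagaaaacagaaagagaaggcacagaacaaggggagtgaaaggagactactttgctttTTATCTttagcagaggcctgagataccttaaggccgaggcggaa
Cpox, chr16:58669958-58670207, plus strand: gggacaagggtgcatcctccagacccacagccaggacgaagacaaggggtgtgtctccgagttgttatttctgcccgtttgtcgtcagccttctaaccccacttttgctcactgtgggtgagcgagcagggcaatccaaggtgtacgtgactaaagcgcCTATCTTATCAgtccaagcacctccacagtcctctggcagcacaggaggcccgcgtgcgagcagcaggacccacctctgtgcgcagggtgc
Uros, chr7:133702617-133702750, minus strand, upstream of the internal start: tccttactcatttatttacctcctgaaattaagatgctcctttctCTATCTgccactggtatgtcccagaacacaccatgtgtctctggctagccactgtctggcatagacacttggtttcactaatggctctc
The Alas2 stretch held 1 match, 86 bases before the start. The Cpox stretch held 2 matches that overlap by 1 base, 91 and 86 bases before the start, and a further match lay 4 bases after it, outside the printed run. The Uros match lay 205 bases before the second of its RefSeq starts, with another at 68 bases that is not printed, and the window of its first start held none. The windows of Alas1, Alad, Urod, Ppox and Slc25a38 held no match, and 8 of the 9 members had an entry. Of all 32851 promoter windows of this length, 29.8% held at least 1 match and 7.77% held 2 or more, so a match in these letters is common and describes a window only.

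After cell calling and removal of likely doublets, 72669 cells were analysed, between 6716 and 16962 in a library, with median depths of 2106.5 to 4628 UMIs (unique molecular identifiers, 1 per captured RNA molecule) per cell. Total counts per library ran from 40214395 to 132485391 UMIs. Haemoglobin transcripts took between 4.62% and 26.7% of the UMIs of a library, and a level is therefore given as counts per 1000000 UMIs that are not haemoglobin (CPM). Of the analysed cells, 1831 carried a barcode that was also called in another library, which is 1.64% to 4.41% of the cells of a library. NEJ709 stood apart, in that 12802 of its 14054 cells fell in a single cluster that no marker list named. The intervals are exact 95% Poisson intervals for levels and exact Clopper-Pearson intervals for shares, and they cover counting error only, not the variation between animals. Levels come from 3′ tags and are compared between cells for a given gene, not between genes.

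Of the named cell classes, erythroid-like cells held the highest level of the 8 members other than Alas1, in each of the 5 libraries that held enough of them. These cells were named from 15 erythroid markers such as Klf1, Epor and Rhd, with the members, the listed pathway genes and haemoglobin left out of the genes used for clustering. NEJ634 had 231 of them, NEJ638 85, NEJ709 448, NEJ723 5721 and NEJ687 3322, with haemoglobin at a median of 56.1% to 72.4% of the UMIs of a cell. In NEJ654 and NEJ677 only 2 and 3 cells fell in the class, and no level is given for them. The highest-class count was 8 of 9 members in every library, against a background over all genes tested of 11.5%, 12.5%, 14.3%, 12.1% and 12.5% in the same order of libraries. Cells without a name were not ranked. In NEJ638 an unnamed cluster of 1025 haemoglobin-rich cells exceeded the erythroid-like class in Alas2, at 7572 against 1907 CPM, and in Fech, at 1807 against 1367. The cells too shallow to be clustered exceeded it in the same 2 genes, in NEJ638 and NEJ687. Clusters of cells were compared here with those they were separated from, so these shares are descriptions without a test.

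Alas2, the erythroid synthase of the first step, stood at 1972 (1887 to 2060) CPM in the erythroid-like cells of NEJ634, 1907 (1684 to 2151) in those of NEJ638, 3323 (3237 to 3411) for NEJ709, 2642 (2616 to 2669) for NEJ723 and 2444 (2417 to 2472) for NEJ687. It was 5.68 to 22.2 times the level of the next class in the same library, which was megakaryocyte-like in 4 libraries and mature neutrophil-like in NEJ638. Megakaryocytes share a precursor with red cells. In the megakaryocyte-like cells Alas2 was 133 CPM in NEJ634, 150 in NEJ709, 465 in NEJ723 and 291 in NEJ687. Ambient Alas2 in these libraries was 159, 917, 141 and 322 CPM, so only NEJ723 lay above it. The source of the Alas2 UMIs in these cells was not tested. T/NK-like cells, which do not make haemoglobin, held 8.83 to 110 CPM over the 7 libraries, and serve as the background level. After each cell was thinned to 500 UMIs that are not haemoglobin, an Alas2 UMI was present in 78.6% (77.5 to 79.7) of 5322 erythroid-like cells of NEJ723, in place of 95.8% of all 5721 before thinning, and in 4.92% (3.21 to 7.18) of its 508 T/NK-like cells, in place of 15.2%. The 399 shallower erythroid-like cells were left out, and median depths in the 2 classes were 4649 and 4771.5 UMIs.

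The other 7 of these 8 members were also highest in erythroid-like cells, each at its own level, while the class that came next varied with the gene and the library. Slc25a38, which brings glycine into the mitochondrion, ran from 129 to 200 CPM in erythroid-like cells with a median of 147, against a highest value of 76.1 in any megakaryocyte-like sample and of 47.8 in B-like cells. Among the cytosolic enzymes, Alad was 569, 446, 473, 642 and 923 CPM in NEJ634, NEJ638, NEJ709, NEJ723 and NEJ687. Uros ranged from 202 to 309 and Urod from 525 to 935. Uros closes the ring that Urod then trims. Cpox, the first of the mitochondrial enzymes that finish the ring, was 1420, 1353, 1319, 813 and 1494 CPM in the same order of libraries, so NEJ723 was the lowest. Ppox, which oxidizes the ring before iron enters, ranged from 324 to 487. Fech was 1086, 1367, 1484, 1093 and 928, with NEJ687 lowest, although NEJ687 held the highest values of Alad, Uros, Cpox, Ppox and Slc25a38. Megakaryocyte-like cells held Cpox at 171, 172, 182.2 and 549 CPM and Fech at 90.3, 198, 158 and 285 in NEJ634, NEJ709, NEJ723 and NEJ687.

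**Figure D1:**
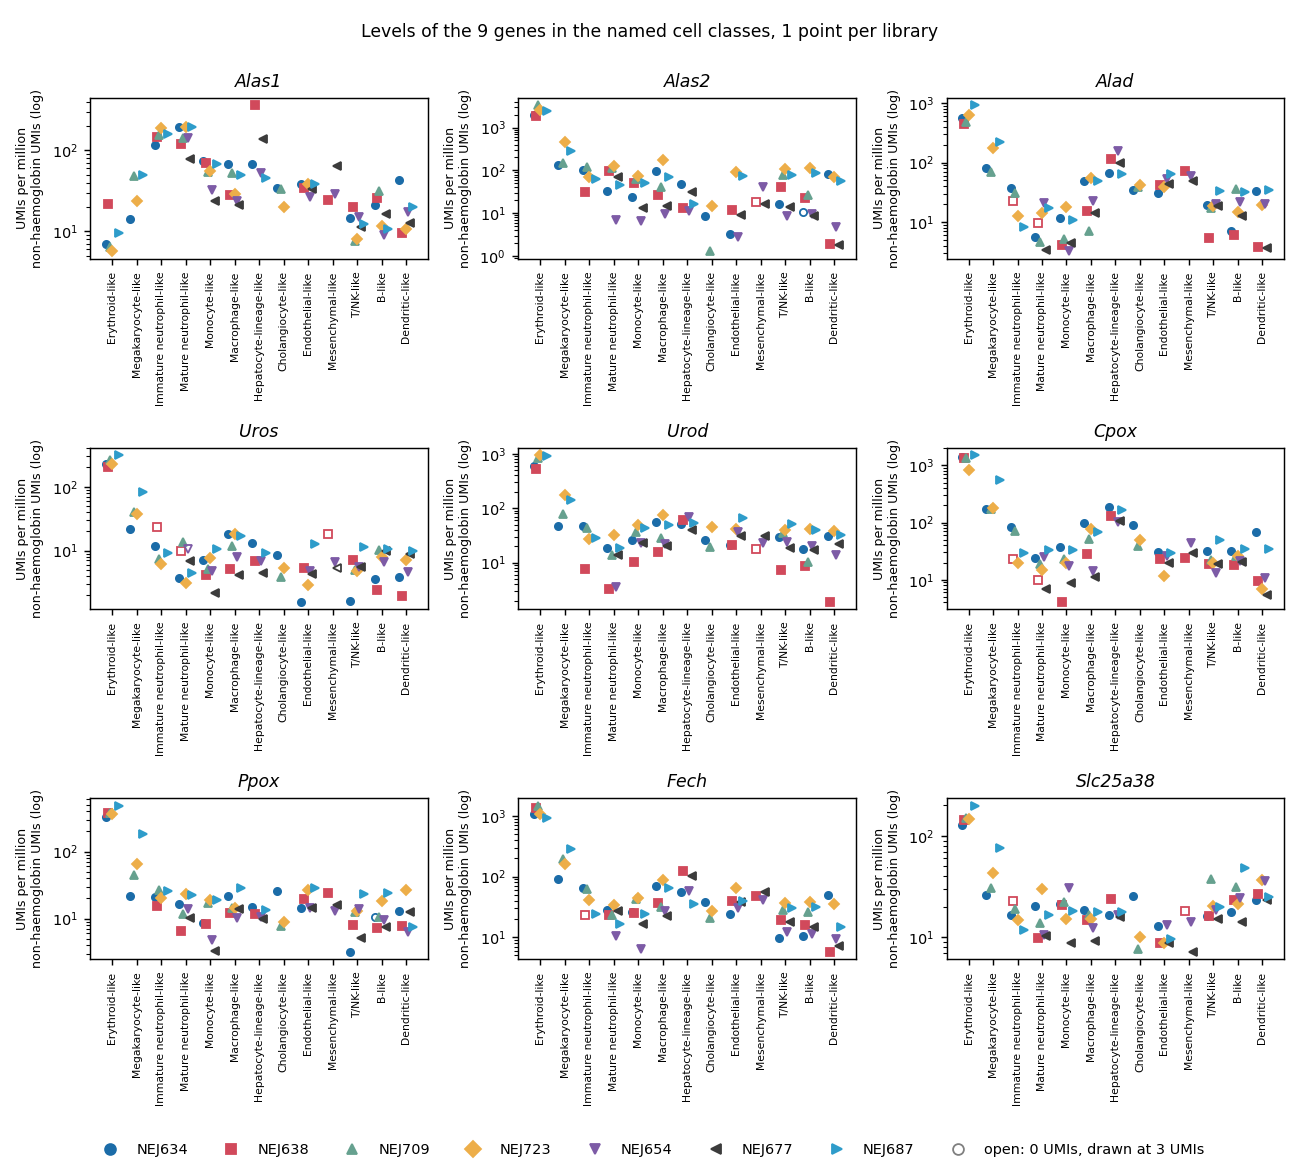
Level of each of the 9 genes in the named cell classes, on a log axis in CPM of non-haemoglobin UMIs, with 1 point per library and open points for 0 UMIs drawn at the 3-UMI limit. Erythroid-like cells sit at the top of every panel but that of Alas1, where neutrophil-like and hepatocyte-lineage-like cells are highest and erythroid-like cells lie between 5.64 and 21.6.

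Alas1, the synthase of tissues other than the erythroid, showed the opposite order. In erythroid-like cells it stood at 6.86, 21.6, 6.46, 5.64 and 9.47 CPM in NEJ634, NEJ638, NEJ709, NEJ723 and NEJ687, where the value of NEJ638 rests on 3 UMIs. In T/NK-like cells of the same libraries it was 14.4, 19.8, 7.52, 7.98 and 12.1, and the intervals of the 2 classes overlapped in each library, so Alas1 was not detectable above this background in erythroid-like cells. Its highest class was mature neutrophil-like in 4 libraries, at 195, 197, 141 and 195 in NEJ634, NEJ723, NEJ654 and NEJ687, and immature neutrophil-like in NEJ709, at 156. Hepatocyte-lineage-like cells were highest in the other 2 libraries, at 361 in NEJ638 and 138 in NEJ677. Over libraries the medians were 156 in immature and 143 in mature neutrophil-like cells, with ranges of 115 to 188 and 78.0 to 197 that overlap, then 67.1 in hepatocyte-lineage-like, 54.9 in monocyte-like and 36.1 in endothelial-like cells. Hepatocyte markers summed to 2020 CPM in the mature neutrophil-like cells of NEJ634 and to 5536 in those of NEJ654, and their part in the Alas1 level was not tested.

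The balance of the synthase genes, which needs no total, differed between the classes. In erythroid-like cells, 98.9% to 99.8% of the UMIs of the pair came from Alas2 in the 5 libraries, with a median of 99.7%. In hepatocyte-lineage-like cells, Alas2 took 41.2% of the pair in NEJ634 and 3.48%, 17.6%, 18.2% and 25.9% in NEJ638, NEJ654, NEJ677 and NEJ687. In mature neutrophil-like cells it took 4.76% to 47.7%. The ambient profile, read from barcodes of low rank in UMIs that were not called as cells, had 29.2% to 95.9% Alas2, and T/NK-like cells, in which both genes are near background, had 37.2% to 93.3%. Among erythroid-like cells with under 5% haemoglobin UMIs, the Alas2 share was 90.1% (84.1 to 94.3) in NEJ723 and 87.3% (79.2 to 93.0) in NEJ687. Both intervals lie below the 99.8% and 99.6% of all erythroid-like cells of these libraries, and both shares lie near those of the ambient profiles, 88.5% and 87.3%. In NEJ634, 26066 of the 45000 barcodes of the ambient profile held more than the 500 UMIs that cells needed, and in the other 6 libraries 0 did. Whether some of those barcodes were cells was not tested, and values set against the profile of NEJ634 carry this limit.

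**Figure D2:**
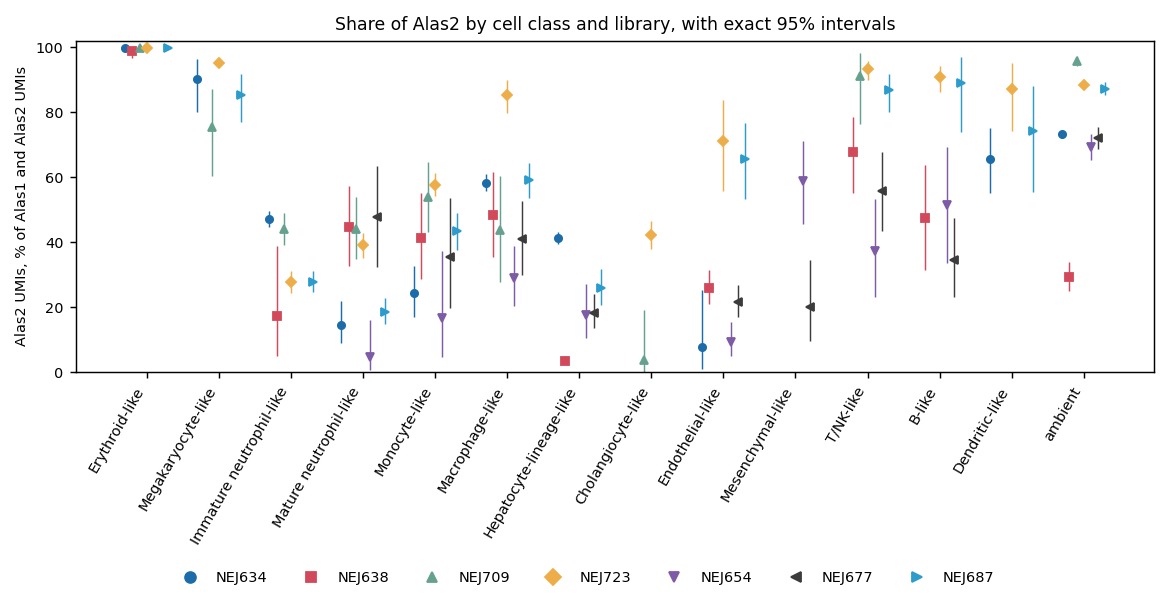
Share of Alas2 in the UMIs of Alas1 and Alas2, in percent, for each cell class and library with at least 20 UMIs of the pair, with exact 95% Clopper-Pearson intervals. Erythroid-like cells lie at 98.9% or above, and hepatocyte-lineage-like cells between 3.48% and 41.2%.

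Within erythroid-like cells, the members reached their highest level at different haemoglobin shares. Haemoglobin takes over the RNA of a red cell precursor as it matures, so its share of UMIs orders the cells. Alas2, relative to the other RNA, rose at every step of this order in each library. In NEJ723 it was 80.7 CPM in cells with under 5% haemoglobin, 446 at 5 to 20%, 1222 at 20 to 40%, 2581 at 40 to 60%, 5596 at 60 to 80% and 9430 at 80% or more. In NEJ687 the same bins held 89.6, 386, 1312, 2796, 6599 and 15089. NEJ634 went from 1266 at 20 to 40% to 11681 at 80% or more, NEJ709 from 460 at 5 to 20% to 12417, and NEJ638 from 1991 at 40 to 60% to 4354 at 60 to 80%. At 20 to 40% haemoglobin the 4 libraries with enough cells lay between 1199 and 1312, and they spread to between 9430 and 15089 in the last bin.

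Fech, the last enzyme, rose with Alas2 up to 60 to 80% haemoglobin and then levelled off or declined. In NEJ723 its 6 bins held 288, 608, 1042, 1577, 1670 and 1359 CPM, and in NEJ687 they held 235, 381, 780, 1295, 2242 and 1979. NEJ634 and NEJ709 showed the same shape, at 2280 and 2456 at 60 to 80% and 1870 and 2056 in the last bin. Urod had its maximum in the same bin as Fech: 1507 in NEJ723, 2166 in NEJ687, 1052 in NEJ634 and 1525 in NEJ709 at 60 to 80%, and 848, 1437, 462 and 1130 at 80% or more.

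Alad, which joins aminolevulinate into the pyrrole, was highest earlier and nearly lost at the end. Its bins in NEJ723 held 460, 645, 959, 1032, 309 and 104 CPM, and those of NEJ687 held 564, 791, 1104, 1414, 665 and 183. In NEJ634 it went from 1005 at 40 to 60% to 0 UMIs in the 66 cells at 80% or more, and in NEJ709 from 655 to 52.4. Cpox followed Alad. NEJ723 held 592, 898, 1254, 1087, 403 and 150 in the 6 bins and NEJ687 held 878, 1149, 1788, 2214, 1432 and 700, while NEJ634 and NEJ709 ended at 323 and 344 from maxima of 2223 and 1739 at 40 to 60%. Slc25a38 was highest at 40 to 60% in the 4 libraries that reach the last bin, at 180, 248, 231 and 349 in NEJ634, NEJ709, NEJ723 and NEJ687. It dropped to between 0 and 42.2 at 80% or more. Uros and Ppox lay between these patterns, with maxima of 375 and 597 at 40 to 60% in NEJ723 and of 553 and 1013 at 60 to 80% in NEJ687. In NEJ634 Uros and Ppox reached 366 and 706 at 40 to 60% and ended at 23.1 each, which is 1 UMI, while in NEJ709 they reached 403 and 587 and ended at 111 and 186. Alas1 showed no such order, with no bin of any library above 13.1 CPM.

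**Figure D3:**
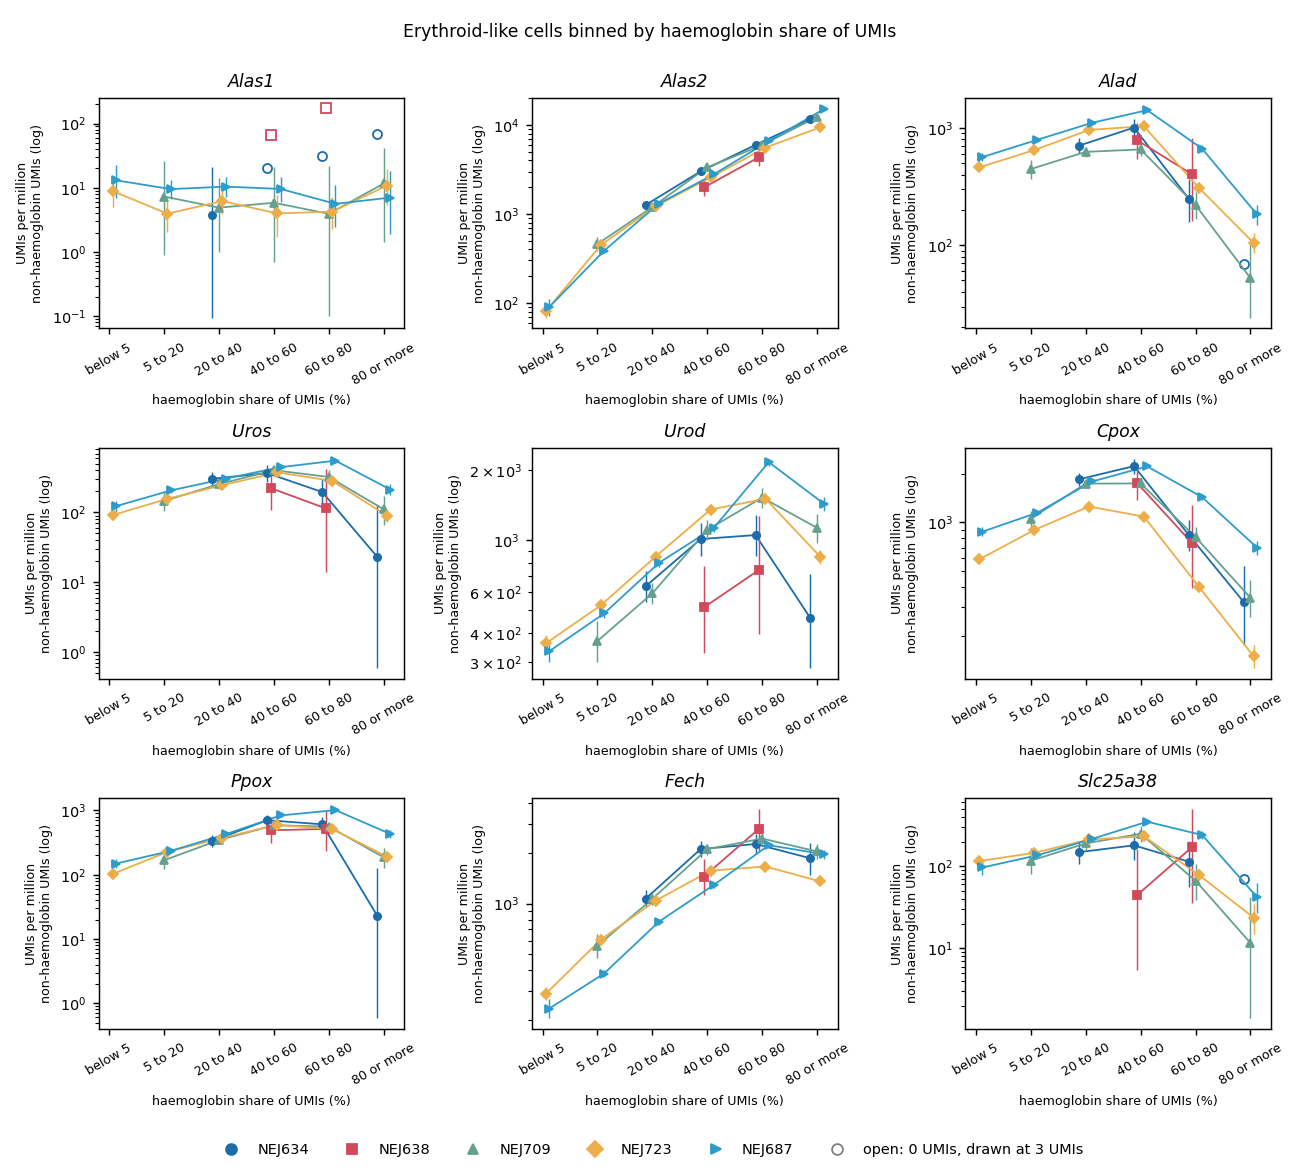
Level of each gene in erythroid-like cells binned by their haemoglobin share of UMIs (x axis, percent), on a log axis in CPM of non-haemoglobin UMIs, with 1 line per library and exact 95% Poisson intervals. Alas2 climbs to between 9430 and 15089 in the last bin, while Alad, Cpox and Slc25a38 turn down after 20 to 60% and end at or below 183, 700 and 42.2.

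The turn of these members was measured by cells with 80% or more haemoglobin over cells with 20 to 40%, a contrast chosen after the values were seen. On the log2 scale, Alas2 was higher by 2.95 to 3.52 and Fech by 0.38 to 1.34 in the 4 libraries, while Cpox lay between -3.07 and -1.35. Alad was -3.57, -3.20 and -2.59 in NEJ709, NEJ723 and NEJ687, and at most -3.35 in NEJ634, where 0 UMIs were set at the 3-UMI limit. Slc25a38 was -3.16 and -2.35 in NEJ723 and NEJ687 and at most -1.10 in NEJ634 by the same limit, and its -4.02 in NEJ709 rests on 2 UMIs. Urod ran from -0.46 to 0.93 and so had no common direction. Over 28 values from the alternative settings that kept to erythroid-like cells and to totals without haemoglobin, of 32 that 8 settings in 4 libraries could give, those of Alas2 and Fech were positive in 28, those of Alad, Cpox and Slc25a38 in 0, those of Urod in 20, those of Ppox in 9 and those of Uros in 2. No value came from 4 cases. These were NEJ723 with the 99th percentile calling rule alone, NEJ634 at Leiden resolution 2, and NEJ709 and NEJ723 clustered on their own. In the contrast of equal groups, given below, NEJ723 with that calling rule had positive Alad (1.24), Cpox (1.05) and Slc25a38 (1.01). These members turned in none of the other missing cases. With cells of over 1000 UMIs, the values of NEJ634 and NEJ709 repeated those reported. The 28 values are thus not independent, and the counts of 28 and 0 do not cover the missing cases. With all analysed cells ordered in place of erythroid-like cells, Alas2 and Fech were positive in the 4 libraries and Alad and Slc25a38 negative, but Cpox, Uros and Ppox were positive in NEJ709, at 0.42, 0.70 and 0.71. With all UMIs, haemoglobin included, as the total, Alas2 remained higher, by 0.87 to 1.09, but Fech became lower, between -1.69 and -1.09, since the total then grows with haemoglobin. With that total, Alas2 also no longer rose from 60 to 80% to the last bin in NEJ634, NEJ709 and NEJ687. It went from 1791 to 1659 per 1000000 UMIs in NEJ634, from 1725 to 1697 in NEJ709 and from 2004 to 1948 in NEJ687. In NEJ723 it went from 1563 to 1569. The direction of Fech in this contrast thus depends on the total used, as does the last step of Alas2 in NEJ634, NEJ709 and NEJ687.

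UMIs per cell, which use no total, did not decline for Alas2 from the lowest to the highest haemoglobin share, while those of Cpox, Alad and Fech did. Erythroid-like cells of each library with at least 100 of them were cut into 5 equal groups by haemoglobin share. From the lowest to the highest, the mean Alas2 UMIs per cell were 6.85, 9.87, 10.2, 9.33 and 7.35 in NEJ634, 9.08, 15.3, 14.0, 13.5 and 11.2 in NEJ709, 5.0, 6.95, 7.21, 6.83 and 6.79 in NEJ723, and 6.09, 9.65, 10.6, 9.96 and 8.72 in NEJ687. The highest group thus held more Alas2 per cell than the lowest in NEJ709, NEJ723 and NEJ687. In NEJ634 the groups held 338 UMIs in 46 cells and 322 UMIs in 47, whose counting intervals overlap, so no difference was detectable there. The median depth of a cell went down over the same groups, from 14579 to 4436.5 UMIs in NEJ634, 11903 to 6969 in NEJ709, 7626 to 4145 in NEJ723 and 11828 to 4478.5 in NEJ687. Cpox per cell went from 18.2 to 0.109 in NEJ634, from 14.9 to 0.236 in NEJ709, from 7.03 to 0.0997 in NEJ723 and from 13.5 to 0.295 in NEJ687. Alad went from between 5.28 and 8.98 to between 0 and 0.0813, and Fech from between 4.88 and 8.63 to between 0.955 and 1.53. Fech thus rose relative to the other RNA of a cell while its UMIs per cell declined.

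**Figure D4:**
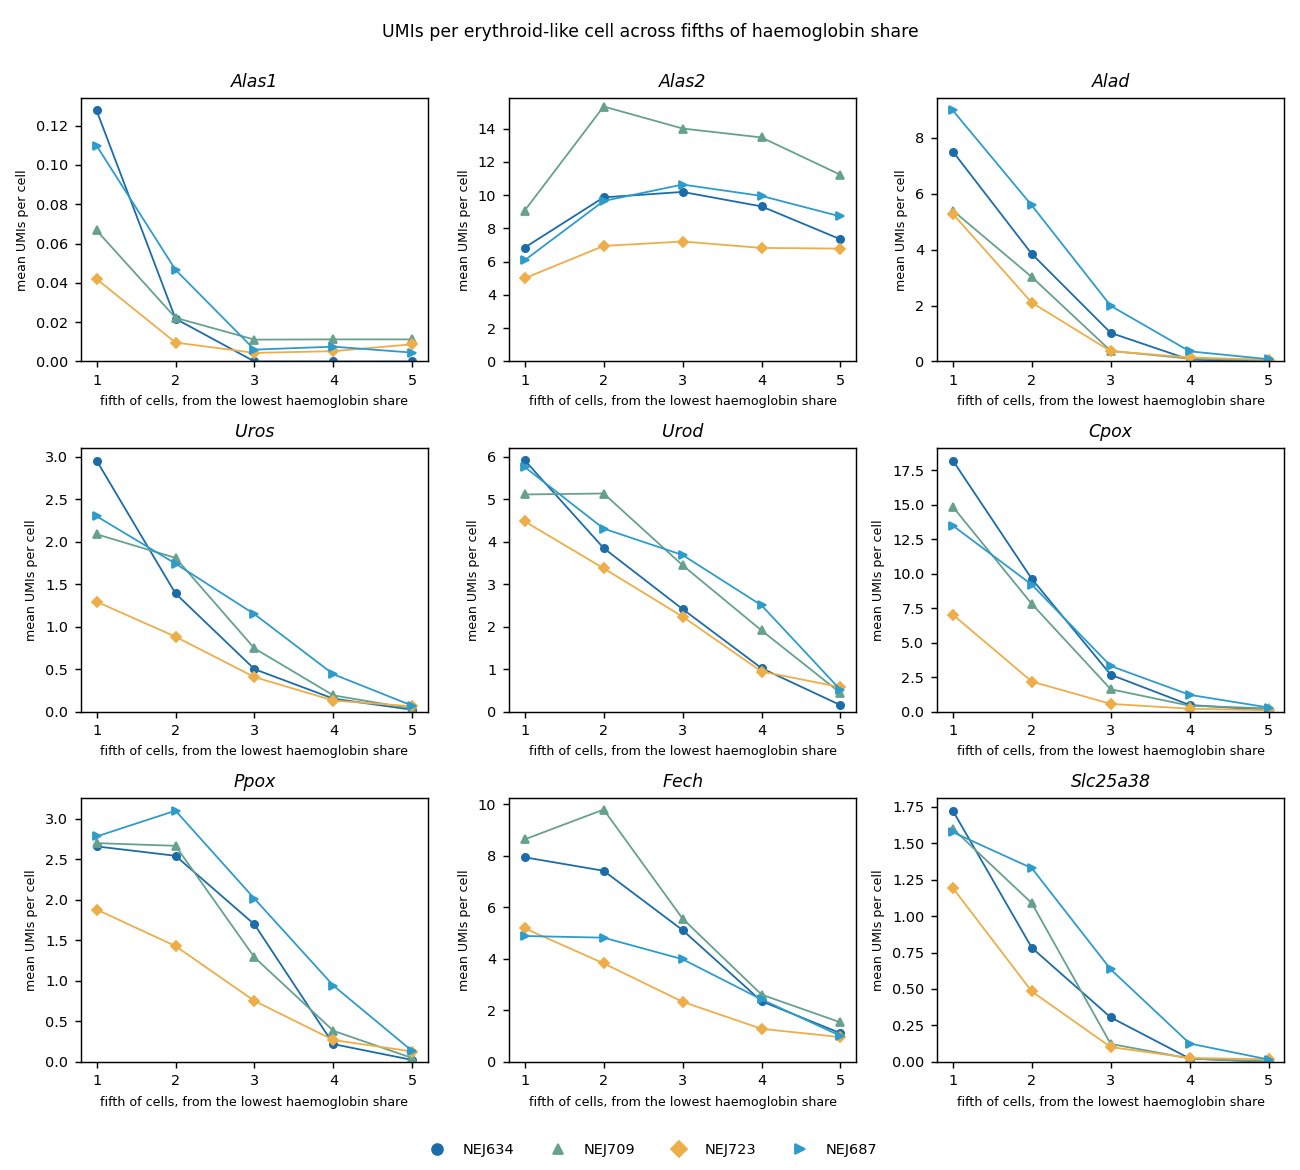
Mean UMIs per erythroid-like cell of each gene, over 5 equal groups of cells from the lowest (1) to the highest (5) haemoglobin share, with 1 line per library and no total applied. Alas2 ends between 6.79 and 11.2 UMIs per cell, while Alad and Cpox end at or below 0.0813 and 0.295.

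Past a fold of 2 between the highest and the lowest of these groups, Alas2 rose in all 4 libraries, with log2 folds of 4.70 (4.48 to 4.92) in NEJ634, 4.04 (3.91 to 4.18) in NEJ709, 3.78 (3.73 to 3.83) in NEJ723 and 4.92 (4.86 to 4.98) in NEJ687. Fech rose in 3, by 1.76, 1.24 and 2.12 in NEJ634, NEJ709 and NEJ687, and stood at 0.90 in NEJ723. Of the members tested, 2 of 8 rose in NEJ634 and NEJ709 and 2 of 9 in NEJ723 and NEJ687, against 12.8%, 7.22%, 13.4% and 9.49% of all genes tested. A gene at 0 UMIs in a group was set at 3 UMIs there, so that its fold is a limit, and was not tested where this limit lay past its level in the other group. Alas1 was the other riser of NEJ723, at 12.4 against 5.88 CPM, and its interval includes no change. In the other direction, 4 of 8 fell in NEJ634, 5 of 8 in NEJ709, 4 of 9 in NEJ723 and 3 of 9 in NEJ687, against 32.0%, 53.0%, 50% and 56.0% of all genes. The share of fallers was near the background in NEJ709 and NEJ723, and by few genes above it in NEJ634 and below it in NEJ687. Among the fallers of NEJ634, the intervals of Uros (-7.80 to 0.013) and Ppox (-7.65 to 0.17) include no change. Alad and Cpox fell in all 4 libraries with the cells as classed here, and these directions turned under other choices of cells. With the 99th percentile calling rule alone they were 1.24 and 1.05 in NEJ723, and with each library clustered on its own 1.37 and 1.76 in NEJ634. With all analysed cells ordered, Alad was 1.28 to 2.36 and Cpox 0.51 to 3.11 over the 4 libraries.

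The level peaked in the second group for Alad in all 4 libraries, in the third or the fourth for Urod and Fech, and in the fifth for Alas2 in all 4. The highest group also differed in its background. Its share of free RNA, estimated from markers of other classes, was 77.9%, 44.55%, 58.0% and 25.8% in NEJ634, NEJ709, NEJ723 and NEJ687, against 2.04% to 7.51% in the lowest. The 15 hepatocyte-lineage markers together went from 450 to 7793 CPM in NEJ634, 219 to 2007 in NEJ709, 657 to 5278 in NEJ723 and 172 to 2548 in NEJ687. The 15 erythroid markers went from 9377 to 5497, 12234 to 9975, 9010 to 9122 and 7338 to 13475 in the same order. In the highest group of NEJ634 they thus summed below the hepatocyte-lineage markers. Epor had no UMIs in the highest group of NEJ634 and NEJ709, nor had Klf1 in that of NEJ709. For Alas2 the ambient level was 159, 917, 141 and 322 CPM in these libraries, against 12725, 14851, 9651 and 17360 in the highest group. The part of free RNA in the levels of the other members was not tested gene by gene. Subtracting the ambient profile at these shares left 11 member and library pairs that rose and 14 that fell, in place of 8 and 16. The counts of fallers also turned on which cells were called erythroid-like: with each library clustered on its own, 25 pairs rose and 4 fell. In NEJ634, Uros and Ppox rest on 1 UMI each in the highest group.

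Cells with 80% or more haemoglobin UMIs were found in all 7 libraries, whatever their cluster, and allowed the members to be read where the erythroid-like class was too small. NEJ634 had 76 such cells, NEJ638 1180, NEJ709 172, NEJ723 1431, NEJ654 332, NEJ677 730 and NEJ687 1060. Alas2 was 11746, 8729, 12417, 9440, 12283, 12202 and 15215 CPM in that order, with NEJ638 lowest and NEJ687 highest. Fech was 1895, 2030, 2056, 1352, 2463, 2712 and 1947. The enzymes of the middle of the pathway spread more widely. In the same order, Urod was 421, 182, 1130, 840, 107, 162 and 1396, and Cpox was 337, 30.9, 344, 148, 45.9, 42.4 and 689. Haemoglobin took 86.1%, 88.0%, 86.3%, 83.4%, 92.4%, 92.6% and 87.2% of the UMIs of these cells, and its part in the spread was not tested. Alad reached 179 at most, and Uros, Ppox and Slc25a38 had 0 UMIs in at least 1 library.

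**Figure D5:**
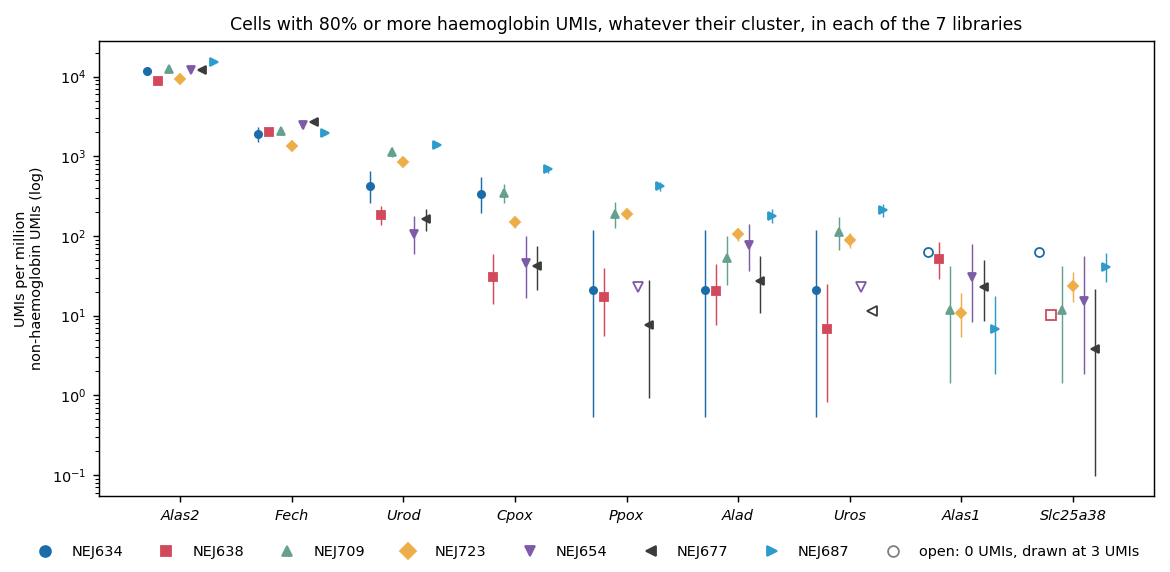
Level of each gene in cells with 80% or more haemoglobin UMIs in each of the 7 libraries, on a log axis in CPM of non-haemoglobin UMIs, with exact 95% Poisson intervals and open points for 0 UMIs at the 3-UMI limit. Alas2 lies between 8729 and 15215 and Fech between 1352 and 2712, while Cpox runs from 30.9 to 689.

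Most of these cells in NEJ638, NEJ654 and NEJ677 lay outside the erythroid-like class, 1166, 332 and 728 of them, mainly in a cluster that no marker list named. In that cluster haemoglobin took 85.9%, 91.7% and 92.0% of the UMIs, Alas2 was 7572, 11292 and 11601 CPM and Fech was 1807, 2266 and 2597. Among the cells of 80% or more haemoglobin outside the class in NEJ687 and NEJ723, Urod was 111 (13.4 to 401) CPM in 104 cells and 0 UMIs in 28 cells, which allows up to 367 CPM. Both were below the Urod of all such cells of their library, 1396 and 840 CPM. The cells outside were also shallower, with medians of 164 and 353 UMIs that were not haemoglobin, against 541.5 and 678 in all such cells. In NEJ687, haemoglobin took 90.6% of the UMIs outside the class, against 87.2% in all such cells. The part of depth and haemoglobin share in the Urod level was not tested. Outside the class Urod was 157, 107 and 159 CPM in NEJ638, NEJ654 and NEJ677. The part of the library in the spread of Urod was not tested. The cells of 80% or more haemoglobin in NEJ638 held a median of 234 UMIs that were not haemoglobin.

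Hepatocyte-lineage-like cells, named from 15 markers such as Alb, Ttr and Fgb, were found in 5 libraries, with 5583 of them in NEJ634 and 318, 247, 148 and 216 in NEJ638, NEJ654, NEJ677 and NEJ687. The liver uses heme mainly in cytochromes P450, and Alas1 is its synthase. Alas1 stood at 67.1, 361, 52.2, 138 and 45.7 CPM in this order, above the intervals of both T/NK-like and B-like cells in 5 of 5 libraries. The T/NK-like values were 14.4, 19.8, 14.9, 11.3 and 12.1. Alad, at 67.2, 116, 154, 99.5 and 63.3, and Cpox, at 187, 128, 102.4, 106 and 165, were also above both in 5 of 5, and Urod and Fech in 4. Fech was 55.5, 121, 57.1, 100.2 and 35.7. Alas2 was above both in 2 libraries, Ppox in 1, and Uros and Slc25a38 in 0. In all, 7, 5, 5, 6 and 3 of the 9 members were above both lymphoid classes in NEJ634, NEJ638, NEJ654, NEJ677 and NEJ687, against 13.6%, 25.0%, 21.4%, 21.3% and 19.4% of all genes tested. The members' share was above this background in NEJ634, NEJ638, NEJ654 and NEJ677, most widely in NEJ634. In NEJ687 it was above by few genes only. Ambient Alas1 was 58.5, 60.5, 26.7, 39.9 and 46.97 CPM in these libraries, in order. Alas1 exceeded it beyond the intervals in all but NEJ687. Alad exceeded its ambient level in NEJ638 and NEJ654 only, and Cpox in NEJ638 and NEJ677 only. In NEJ634, Alas2, Urod, Ppox and Fech lay below ambient levels of 159, 62.3, 25.1 and 107.99. With the ambient profile subtracted, 20 pairs in place of 26 were above both lymphoid classes. The part of free RNA was not tested gene by gene.

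As the highest of the named classes, hepatocyte-lineage-like cells held 0 of 9 members in NEJ634 and NEJ687, Alas1 alone in NEJ638, 4 in NEJ654 (Alad, Urod, Cpox and Fech) and 5 in NEJ677 (these and Alas1). The background over all genes tested was 10.3% in NEJ634, 17.4% in NEJ687, 14.5% in NEJ638, 16.1% in NEJ654 and 15.3% in NEJ677. NEJ654 and NEJ677 are the libraries with no erythroid-like class of sufficient size, so there the erythroid-like cells were not among the classes compared. In NEJ634 the class was mostly 1 cluster of 5500 cells with Alas1 at 63.0 (59.8 to 66.2) CPM, while a cluster of 43 cells held 297 (238 to 366) and a cluster of 40 held 245 (176 to 331). Cpox was 187, 169 and 169 in these 3 clusters, with intervals that overlap. The cluster of 43 cells also held more Fech than the large one, at 118 (82.4 to 164) against 54.0. The cluster of 40 cells, in which haemoglobin took 8.42% of the UMIs against 1.79% in the large one, was above the intervals of the large one in Alas2 (285 against 45.7), Fech (151), Urod (146 against 49.4), Uros (58.3 against 12.7) and Ppox (81.6 against 14.5) as well. The summed hepatocyte markers of the class were 25657, 109120, 161140, 152780 and 31892 CPM in NEJ634, NEJ638, NEJ654, NEJ677 and NEJ687. Erythroid markers summed to 348, 14.2, 4.87, 11.2 and 135 in the same order, and mature neutrophil markers to 5987 in NEJ634. Their part in the levels of the members was not tested.

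Across 68 combinations of class and library with at least 50 cells, the genes with levels most like those of Alas2, among 7890 genes with haemoglobin set apart, included Tspo2 (Pearson r = 0.94), Bpgm (0.93) and Slc4a1 (0.93). Slc4a1 encodes the anion exchanger of the red cell membrane and is among the markers that named the erythroid-like class, and Bpgm makes the phosphoglycerate that tunes oxygen release. Of the members, Uros (0.87), Ppox (0.86), Fech (0.86) and Urod (0.84) were closest to Alas2, followed by Slc25a38 (0.78), Cpox (0.76) and Alad (0.66), and Alas1 had -0.13. The genes most like Alas1 were Pygl (0.85), Slc27a4 (0.83), Hp (0.81), Dgat2 (0.81) and Sgms2 (0.81), where Pygl is the liver glycogen phosphorylase and Hp encodes haptoglobin. These values are on log2(level + 10), and the points share libraries and depth, so they are descriptions without a test.

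The other listed genes of the pathway were read in the same highest and lowest groups of erythroid-like cells. Of 14 genes for mitochondrial carriers, iron supply and accessory functions, 11 to 14 were tested, and 4, 2, 2 and 4 rose past 2-fold while 3, 5, 7 and 8 fell in NEJ634, NEJ709, NEJ723 and NEJ687, where 12.8%, 7.22%, 13.4% and 9.49% of all genes rose and 32.0%, 53.0%, 50% and 56.0% fell. The fallers of the list were thus near the background. Their median log2 fold was 0.069, -0.87, -0.88 and -1.22, beside -0.47, -1.09, -0.998 and -1.22 over all genes. The members had medians of at most -1.47 and -2.0 in NEJ634 and NEJ709, since members at 0 UMIs enter at their limit, and of -0.56 and -0.20 in NEJ723 and NEJ687. The medians of the lists and of all genes hold such limits too. Of 7 genes for heme export and breakdown, between 3 and 6 were tested, with 1, 1, 2 and 2 rising and 0, 0, 1 and 2 falling, and with medians of -0.50, 0.18, 0.70 and 0.48. Of 7 regulators, 4 to 5 were tested in a library, and 0 rose while 2, 3, 3 and 3 fell, near the same background, with medians of -0.996, -1.14, -1.52 and -1.39. The 4 with the widest median folds over the libraries were Tmem14c, a carrier gene for porphyrin precursors, at -4.82, Iscu, the iron-sulfur cluster scaffold, at 3.41, the heme transporter gene Slc48a1 at 3.35 and the mitochondrial carrier gene Slc25a39 at 3.32. Each of the 4 moved in a single direction in every library tested, with ranges of -6.15 to -4.16, 3.11 to 3.66, 2.74 to 4.04 and 2.83 to 3.74. The 4 were picked by the width of these same folds, and the alternative settings were not run on them. The lowest value of Tmem14c, in NEJ634, rests on 1 UMI in the highest group.

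Over all analysed cells of a library a level sums over its cell classes, and fewer cells of a type and less RNA per cell cannot be told apart in such sums. Alas2 ran from 93.6 to 737 CPM with a median of 217, Cpox from 29.4 to 536, Fech from 44.7 to 324 and Alad from 46.0 to 348, while Alas1 ran from 28.6 to 91.7. NEJ709 held 737 with 3.19% of its cells erythroid-like, NEJ723 held 693 with 46.0% and NEJ687 held 728 with 42.9%. In NEJ709, 21214 of the 27251 Alas2 UMIs lay in 12859 cells without a name, and 5656 in erythroid-like cells. Erythroid-like cells held 37510 of 41401 in NEJ723 and 29935 of 31622 in NEJ687. Above the ambient profile of the same library, beyond the counting intervals, lay 9 of 9 members in NEJ638 and NEJ723, and 8, 3, 2, 1 and 0 in NEJ687, NEJ634, NEJ654, NEJ677 and NEJ709. The background over all genes tested was 82.6%, 61.0%, 22.6%, 35.0%, 59.7%, 57.4% and 4.34% in the same order. The members' share was thus near the background in NEJ634, NEJ638 and NEJ709, below it in NEJ654 and NEJ677, and above it in NEJ723 and NEJ687. Alas2 was above it in 5 libraries and below it in NEJ634, at 121 against 159, and NEJ709, at 737 against 917.

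On GRCm38, the build of the annotation whose gene identifiers match those of the matrices, Alas1 lies on chromosome 9 (106233455 to 106248654, minus strand), Alas2 on chromosome X (150547375 to 150570638, plus), Alad on chromosome 4 (62509169 to 62519918, minus), Uros on chromosome 7 (133686243 to 133710072, minus) and Urod on chromosome 4 (116989965 to 116994413, minus). Cpox lies on chromosome 16 (58670292 to 58717636, plus), Ppox on chromosome 1 (171275990 to 171281186, minus), Fech on chromosome 18 (64452914 to 64490251, minus) and Slc25a38 on chromosome 9 (120110374 to 120124504, plus). Alas1, Alas2, Uros, Cpox and Ppox overlap a counted gene on the opposite strand, 4930500F10Rik, Apex2, Bccip, Gpr15 and B4galt3. The strand setting of the counting is not given in the sources used here. Whether reads of these genes entered the counts of the members was not tested. The matrices give the members as ENSMUSG00000032786 (Alas1), ENSMUSG00000025270 (Alas2), ENSMUSG00000028393 (Alad), ENSMUSG00000030979 (Uros), ENSMUSG00000028684 (Urod), ENSMUSG00000022742 (Cpox), ENSMUSG00000062729 (Ppox), ENSMUSG00000024588 (Fech) and ENSMUSG00000032519 (Slc25a38).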

How the data were processed

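The deposited files were raw counts, matrices of UMI counts per gene and barcode that the authors made with Cell Ranger (6.0 in the processing notes) for 3′ 10x libraries, including empty barcodes. Cells were called again: barcodes past the 99th percentile of an expected 3000 cells divided by 10, plus barcodes that differed from the ambient profile (ranks 45000 to 90000, 10000 draws, adjusted p of 0.01). At most the 20000 deepest barcodes under that depth limit were compared with the profile, and the rest were not. Depths over 500 UMIs and a mitochondrial share of 20% or less were kept. Scrublet scores marked at most 0.0505% of cells by their own threshold, so the top scores were removed at 0.8% per 1000 cells. Clustering used scanpy 1.11.5 and leidenalg 0.10.2 (2000 variable genes, 40 components, 15 neighbours, resolution 1), and the 36 clusters were called "X-like" from 16 marker lists or left unnamed, by limits set after the data were seen. Cells with fewer than 200 non-haemoglobin UMIs, 619 in all, were not clustered. Classes needed 20 cells. Levels were summed UMIs per 1000000 non-haemoglobin UMIs. Folds needed 20 UMIs over both groups. The genes and lists were chosen with earlier results of these data known. The named genes are the 9 members, the 5 genes most like Alas2 and Alas1 (levels of 50 or more in at least 2 combinations), and the 4 listed pathway genes with the widest folds; some genes that this rule names are not reported here. The contrast script was tested on simulated data. Alternatives changed the calling, doublets, shared barcodes, depth, total, averaging, clustering, ordering and ambient subtraction.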

Additional observations from a re-analysis of the deposited data

Results flagged for a closer look

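Alas2 UMIs were present in barcodes that entered no cell class, namely those past the depth and mitochondrial limits that cell calling had left out. The level there, in counts per 1000000 non-haemoglobin UMIs (CPM), was 193.57 over 46820 barcodes of NEJ634, 769.81 over 10052 of NEJ709, 191.91 over 9578 of NEJ723, 90.149 over 239 of NEJ677 and 937.22 over 829 of NEJ687, each above what a count of 0 allows. The ambient profiles of the same libraries held 159, 917, 141, 103 and 322. NEJ723 and NEJ687 thus had more Alas2 in these barcodes than in their ambient profile, with intervals that do not overlap. In NEJ634, 24077 of the barcodes are part of the ambient profile itself, so its values are not separate. Haemoglobin took 7.63%, 31.1%, 7.01%, 6.01% and 29.4% of their UMIs. In NEJ654, 420 such barcodes held 2 Alas2 UMIs. Calling compared only the 20000 deepest barcodes under its depth limit with the ambient profile, and NEJ634, NEJ709 and NEJ723 reached this cap. In these libraries, part of the barcodes left out was therefore never compared with the profile.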

How the results depend on the processing

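The counts of members highest in erythroid-like cells (40 to 44 of 45 pairs, and 32 without NEJ709), above the ambient profile (31 to 38) and above lymphoid cells in hepatocyte-lineage-like cells (20 to 29), and the median Alas2 share (99.4% to 99.7%), moved by less than 1.5 times. Leaving out shared barcodes left 40, 32 and 24 of these pairs. The contrast of the highest with the lowest of the 5 groups, 8 risers and 16 fallers (8 and 16 without shared barcodes), did not hold. It gave 17 and 9 with the 99th percentile calling rule alone, 4 and 28 with all UMIs as the total, 16 and 9 at Leiden resolution 2, 25 and 4 with each library clustered on its own, 29 and 2 with all analysed cells ordered, and 5 risers with fixed bins, a choice made after seeing the data, as was leaving out NEJ709 (6 and 11). Using all UMIs adds haemoglobin to the total, and the calling, clustering and ordering alternatives change which cells are ordered.

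Log2 folds turned sign as follows. With the 99th percentile rule alone, Ppox was 0.29 in NEJ634, and in NEJ723 Alad was 1.24, Uros 1.98, Cpox 1.05 and Slc25a38 1.01. With all UMIs as the total, Fech was -0.997 in NEJ634, -1.61 in NEJ709 and -0.80 in NEJ687, and Alas1 was -1.25 in NEJ723. At resolution 2, Uros and Ppox were 0.36 and 1.85 in NEJ634 and 0.77 and 1.52 in NEJ709, and Alas1 and Uros were -1.21 and 1.36 in NEJ723. With each library clustered on its own, Alad, Uros, Cpox and Ppox were 1.37, 2.25, 1.76 and 3.13 in NEJ634, Uros and Ppox were 1.17 and 1.78 in NEJ709, and Alas1 and Uros were -0.24 and 1.31 in NEJ723. With all analysed cells ordered, Alad, Uros, Cpox and Ppox were 2.36, 3.15, 2.16 and 3.43 in NEJ634. In NEJ709, Alad, Uros, Cpox, Ppox and Slc25a38 were 1.28, 1.42, 0.51, 1.58 and 0.90. In NEJ723, Alas1 was -2.67 and Alad, Uros, Cpox and Slc25a38 were 1.55, 4.52, 1.92 and 0.62, and in NEJ687 Alad, Cpox and Slc25a38 were 1.73, 3.11 and 2.21. With the ambient profile subtracted, Alas1 was -0.15 in NEJ723. No paired analysis was possible because the labels give no groups. A group with no UMIs of a gene was set at a limit of 3 UMIs, and smaller counts are given as measured.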

Other observations

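A cluster that no marker list named, led by Car1, the carbonic anhydrase of early erythroid cells, held members at low haemoglobin. Haemoglobin took 0.283% of its UMIs in NEJ634 (51 cells), 1.23% in NEJ723 (193) and 1.01% in NEJ687 (534). Cpox was 280, 199 and 350 CPM there and Alad 113, 171 and 304, while Alas2 was 7.97, 23.1 and 25.5 and Alas1 15.1, 8.51 and 15.3. Alad and Cpox in these cells thus lay above the T/NK-like values of every library, and Alas2 did not.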
